A study of Rattus norvegicus with 174 samples.

Results

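The genes described here build and supply mitochondria: the translocases that bring proteins into the organelle from the cytosol, and the factors that assemble cytochrome c oxidase, complex IV of the respiratory chain. Members were all genes on the array whose symbol starts with Timm or Tomm, or with Coa followed by a digit, and the genes Cox10, Cox11, Cox15, Cox17, Cox18, Cox19, Cox20, Sco1 and Oxa1l. This gave 36 of the 13438 genes that had a probe set listing that gene alone. The choice used symbols and no measured value, but it was made with earlier results of these data known. Timm17a, Timm23 and Surf1 were each listed together with another gene on 3 probe sets and were not used, and Sco2, Timm50 and Coa6 were not analysed here. Of the 36 members, 20 had 1 probe set and 16 had several, of which the brightest by mean over all arrays was taken.

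Nearly all mitochondrial proteins are encoded in the nucleus and enter through the TOM complex of the outer membrane, whose receptors hand precursors to the channel protein Tomm40. From there the small Tim chaperones carry hydrophobic proteins across the intermembrane space, while the presequence translocase and the carrier translocase pass them into or through the inner membrane. Cytochrome c oxidase is then put together from mitochondrial and nuclear subunits by dedicated factors that insert its core proteins, make heme A and deliver copper. Phosphine, a fumigant gas, is known to inhibit cytochrome c oxidase in isolated mitochondria, and organs with a high oxygen demand such as the heart are among those damaged in poisoning.

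Total RNA of 33 adult male Sprague-Dawley rats (an outbred stock) was measured on 174 single-colour Affymetrix arrays. Exposed rats had inhaled phosphine, whole-body, at 660 ppm for 32.2 min. The labels put this dose at 21252 ppm x min, which is 0.91 of the LCt50, the product of concentration and time that kills the median animal. Air rats had been held at 0 ppm for 32.2 min. Solid tissues (brain, heart, kidney, liver, lung) were sampled after 1, 3, 6 and 24 h in 4 exposed and 4 air rats each, except that the air groups at 6 h held 2 rats, and each of these rats gave all 5 solid tissues. For blood the group sizes were 4 and 4 (phosphine and air) at 1 h and at 3 h. At 6 h they were 5 and 1, and at 24 h only 2 exposed rats were sampled. Values are log2 signals, so that a difference of 1 is 2-fold. Changes are phosphine minus air ± the standard error of the limma fit, and padj is the p-value after Benjamini-Hochberg adjustment over all 13438 genes. A change was called at a padj under 0.05. In these bulk samples, fewer cells of a type and less RNA per cell cannot be told apart.

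Each tissue carried the markers of its label: the mean log2 signal of the hepatocyte list lay at 12.95 or above on every liver array, and those of the cardiomyocyte, alveolar and neuron lists at or above 11.5, 12.37 and 10.40 in heart, lung and brain. There were 13 arrays of solid tissue (10 phosphine, 3 air) on which a list of another organ or of skeletal muscle lay at least 4 log2 above the tissue's median. They include the heart of exposed Rat729 at 3 h, with a hepatocyte list 8.12 above the median, and 3 lungs at 3 h (exposed Rat729 and air Rat733 and Rat738) with skeletal muscle genes up to 6.91 above it. None was a liver at 6 h. RNA integrity, read from control transcripts as the log2 signal of 3' minus that of 5' probe sets, was compared in 23 two-sided exact permutation tests, in which 4 against 4 rats allow no p under 0.0286 and 4 against 2 none under 0.0667. Liver at 1 h (-0.147) and brain at 3 h (-0.155) reached the first limit and kidney at 6 h (0.114) the second, and the largest difference in a solid tissue was that of heart at 3 h (0.1855, exact p = 0.0857). After adjustment the smallest p was 0.329, and tests of this size do not show that integrity was alike.

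In air rats the members were not evenly expressed over the organs. Whether the tissues were normalized together is not given in the sources used here, so levels set across tissues carry that limit. Among the 5 solid tissues, heart had the highest mean signal for 21 members, kidney for 8, liver for 4 and brain for 3, while lung had the lowest for 22, brain for 7, liver for 6 and kidney for 1. Timm10, a small Tim chaperone, spanned the widest range. Its mean was 10.20 ± 0.06 in heart, 8.76 ± 0.10 in kidney, 8.76 ± 0.16 in liver, 8.57 ± 0.10 in brain and 6.87 ± 0.13 in lung (SD, n = 14 each), so that heart stood apart at the top and lung at the bottom, while kidney and liver did not differ beyond their spread. Cox10, the enzyme that attaches a farnesyl chain to heme on the way to heme A, was 9.01 ± 0.09 in heart, 7.06 ± 0.16 in kidney, 6.62 ± 0.20 in liver, 6.45 ± 0.09 in brain and 6.15 ± 0.19 in lung. Its heart values, from 8.88 to 9.21, did not overlap those of any other tissue. Tomm70, a receptor for carrier precursors, had another order, with 10.14 ± 0.09 in brain, 8.80 ± 0.14 in heart, 8.33 ± 0.13 in liver, 7.99 ± 0.14 in kidney and 7.75 ± 0.10 in lung. Coa8 and Tomm7 varied least, by 0.43 between the highest and the lowest tissue each. Blood, with 9 air samples, had larger SDs, for example 5.81 ± 0.76 for Cox10.

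**Figure D1:**
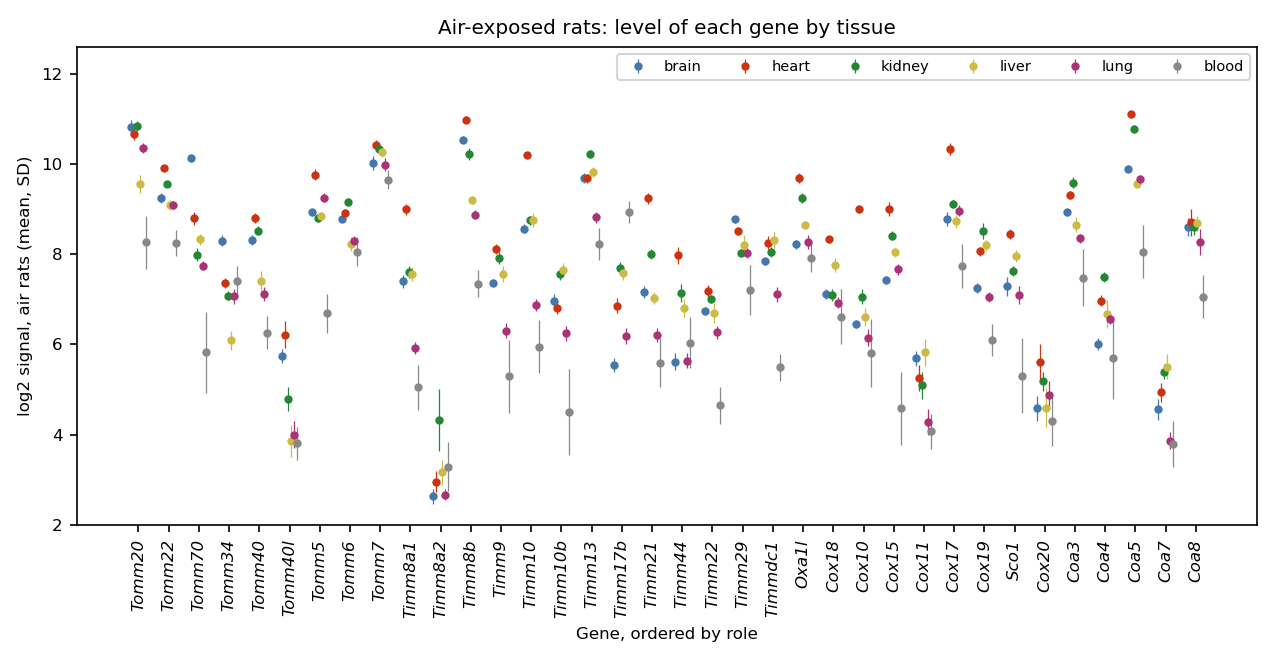
Mean log2 signal of each of the 36 genes in air rats (points) with the SD (bars), by tissue; n = 14 rats per solid tissue and 9 blood samples. Heart is the highest solid tissue for 21 genes and lung the lowest for 22; signals are to be compared between tissues within a gene, not between genes.

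Over 23 comparisons of phosphine with air, 828 pairs of a gene and a comparison were tested and 25 were called, 13 higher and 12 lower after phosphine. They fell on 16 of the 36 members and on 9 of the 23 comparisons. Only 4 calls, all in blood at 3 h, reached a 2-fold difference. Outside blood the median change over the 36 members lay between -0.14 (heart at 3 h) and 0.12 (liver at 6 h), beside medians over all genes between -0.03 and 0.01.

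**Figure D2:**
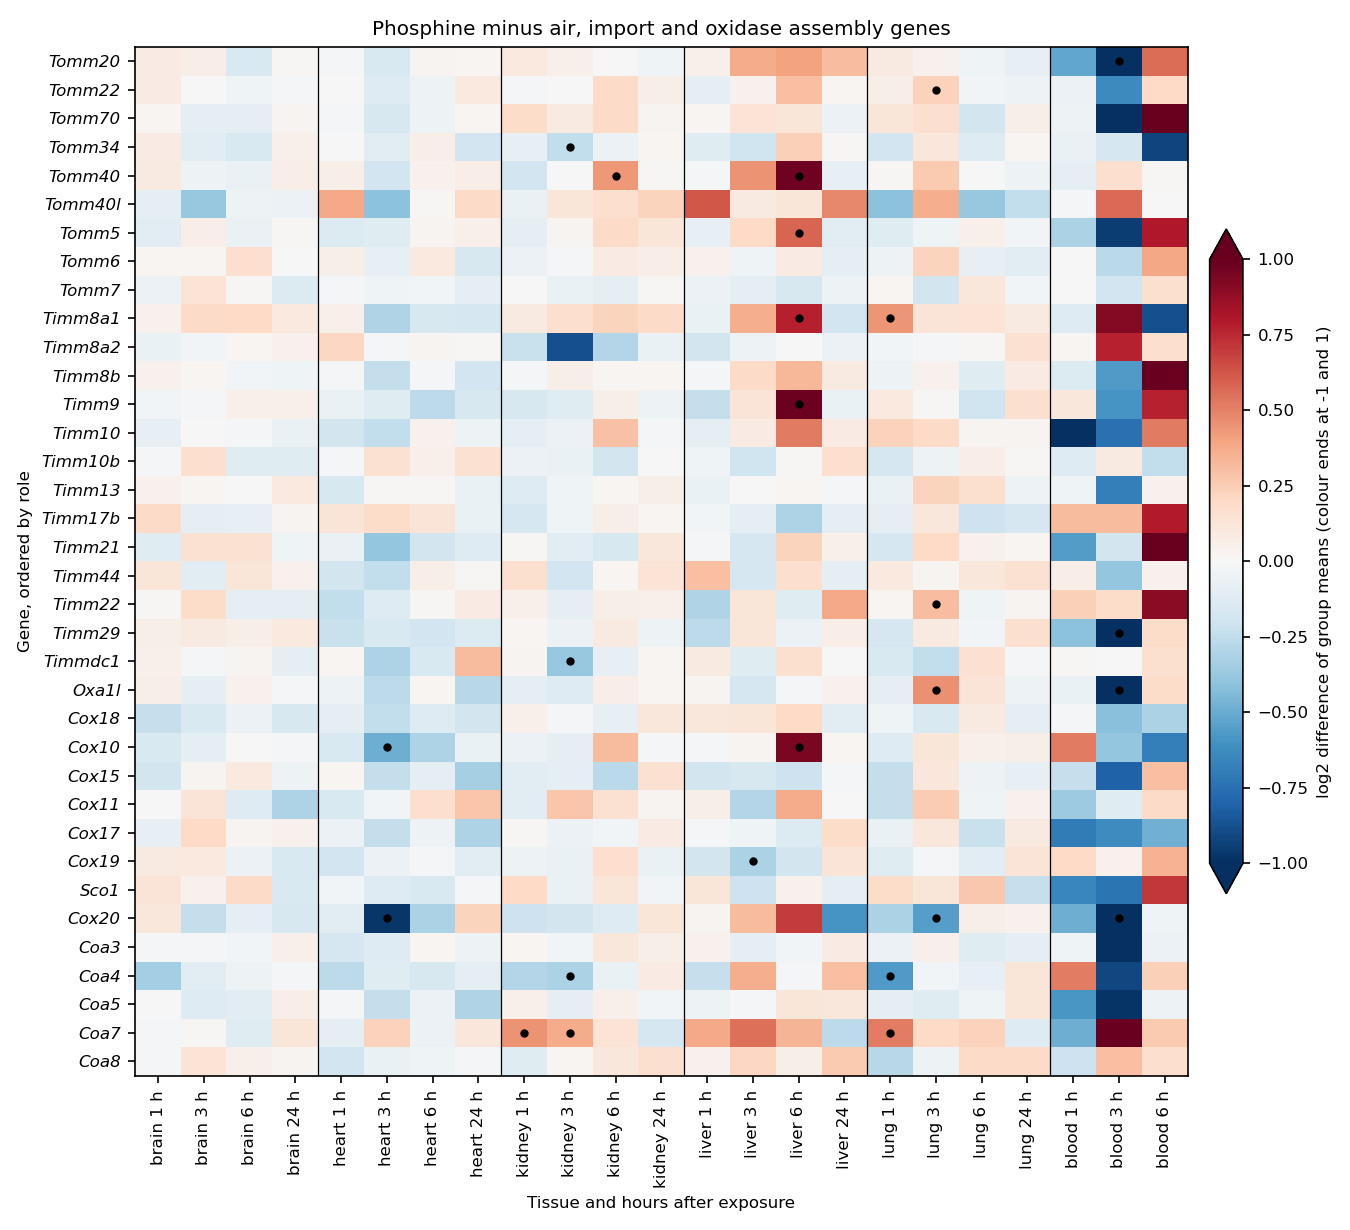
Log2 difference of group means, phosphine minus air, for 36 genes (rows, ordered by role) in 23 comparisons (columns, tissue and hour); black dots mark the 25 changes with an adjusted p under 0.05, and colours end at -1 and 1. The called rises in liver lie in the 6 h column (5 of 36 genes), and the 4 calls in blood lie in the 3 h column.

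By comparison, liver at 6 h had 5 members called, all higher, where 0.164% of all genes were called higher. Kidney had 1 member called at 1 h, higher (2.12% of all genes higher), 4 at 3 h, 1 higher and 3 lower (2.86% of genes higher, 3.53% lower, 6.39% in either direction), and 1 at 6 h, higher (0.253% of genes higher). Lung had 3 members called at 1 h, 2 higher and 1 lower (2.18% of genes higher, 3.62% lower, 5.8% in either direction), and 4 at 3 h, 3 higher and 1 lower (5.84% of genes higher, 5.76% lower). As a share of the members this is close to the 11.6% of all genes called there. Heart at 3 h had 2 members called, both lower (2.28% of genes lower), and liver at 3 h had 1, lower (1.87% of genes lower). In blood at 3 h, 4 members were lower, beside 5.8% of all genes.

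The remaining 14 comparisons had 0 members called by limma. In brain, 0.149%, 0.506%, 0% and 0% of all genes were called at 1, 3, 6 and 24 h, and 3, 3, 0 and 1 of the 36 members had an unadjusted p under 0.05, beside 11%, 8.65%, 5.64% and 3.79% of all genes. Tomm40l in brain at 3 h, a paralogue of the channel protein, had the lowest value of any member in brain (-0.38 ± 0.11, padj = 0.177). In heart 1.33%, 0.35% and 0.0819% of all genes were called at 1, 6 and 24 h, and 4, 3 and 5 members had an unadjusted p under 0.05, beside 10.9%, 9.37% and 7.61% of genes. In liver at 1 and 24 h 0.335% and 0% of genes were called, and 6 and 5 members passed the unadjusted threshold, beside 6.76% and 7.14% of genes. Kidney at 24 h had 0% of genes called and 0 members at that threshold, beside 5.5% of genes. In lung at 6 and 24 h 0.0967% and 0.00744% of genes were called, with 1 and 0 members at the unadjusted threshold beside 8.8% and 3.16% of genes. In blood at 1 and 6 h 0.00744% and 0.0521% of genes were called, with 2 and 2 members beside 7.72% and 10.2% of genes.

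The liver at 6 h had the most called members of any comparison. Tomm40, the channel of the outer membrane, its small partner Tomm5, the small Tim chaperones Timm8a1 and Timm9, and Cox10 were all higher in exposed rats, by 1.49- to 1.97-fold. In each of these 5 genes the 4 exposed livers at 6 h lay above all 26 other liver arrays, air and exposed, of every hour. Such places, here and below, were read for called genes only, which were picked by the same difference. The share of all genes placed so was not counted, so they add no separate support.

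Tomm40 (chr1:88486745-88498833 in GRCr8) forms the pore through which nearly all precursors pass. Its log2 signal was 7.61 and 7.19 in the livers of air Rat762 and Rat763, and 8.10, 8.45, 8.35 and 8.58 in those of exposed Rat758, Rat760, Rat761 and Rat789. The groups did not overlap, and the highest of the other livers, an exposed one at 3 h, was 7.93. The change was 0.97 ± 0.19 (padj = 0.027). Tomm5 (chr5:64158026-64160857), a small subunit that helps pass precursors from the receptors to the channel, read 8.89 and 8.72 in air rats and 9.24, 9.44, 9.48 and 9.37 in exposed rats. Its change was 0.58 ± 0.09 (padj = 0.0079). No gene of the array had a lower padj in this comparison, but Tomm5 shared this value with another gene.

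Timm9 and Timm8a1 belong to the family of small chaperones that escort membrane proteins through the intermembrane space. Timm9 (chr6:95346065-95358895), which works in a ring with Timm10, was 7.62 and 7.59 in air rats and 8.13, 8.91, 8.70 and 8.60 in exposed rats, a change of 0.98 ± 0.19 (padj = 0.027). Exposed Rat758 had the lowest of the 4 values, still above both air values. Timm8a1 (chrX:102011206-102015444), the rat counterpart of the human gene mutated in deafness-dystonia syndrome, was 7.47 and 7.73 in air rats and 8.29, 8.33, 8.46 and 8.46 in exposed rats (0.78 ± 0.15, padj = 0.0241). The exposed values were tightly grouped and clear of the air values. A second Timm8a1 probe set gave a smaller change of 0.32 (8.22 after phosphine, 7.9 in air). The 2 correlated at r = 0.892 over all arrays, so the size of the change depends on the probe set. Timm10, the partner of Timm9, was not called (0.52 ± 0.14, padj = 0.152), although its exposed values of 9.13, 9.16, 9.24 and 9.38 lay above the air values of 8.87 and 8.55. The 7 small Tim genes had a median change of 0.33, and 6 of them a positive value.

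Cox10 (chr10:49130209-49242009) was 6.85 and 6.68 in air rats and 7.42, 7.87, 7.91 and 7.60 in exposed rats, a change of 0.94 ± 0.17 (padj = 0.0171). Cox15, which carries out the next step to heme A, was not called and had a value of the other sign (-0.21 ± 0.16, padj = 0.75). The import receptor Tomm20 (0.40 ± 0.15, padj = 0.347), the motor anchor Timm44 (0.17 ± 0.16), the copper factors Sco1 (0.04 ± 0.13) and Cox17 (-0.14 ± 0.11) and the insertase Oxa1l (-0.02 ± 0.09) were not called either. Cox20, a chaperone of the oxidase's second subunit, had a larger but less precise value (0.70 ± 0.28, padj = 0.419). Over the 36 members, 25 values were positive (47.6% of all genes were) and 11 had an unadjusted p under 0.05 (9.21% of all genes), and their median was 0.12 beside -0.01 over all genes.

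**Figure D3:**
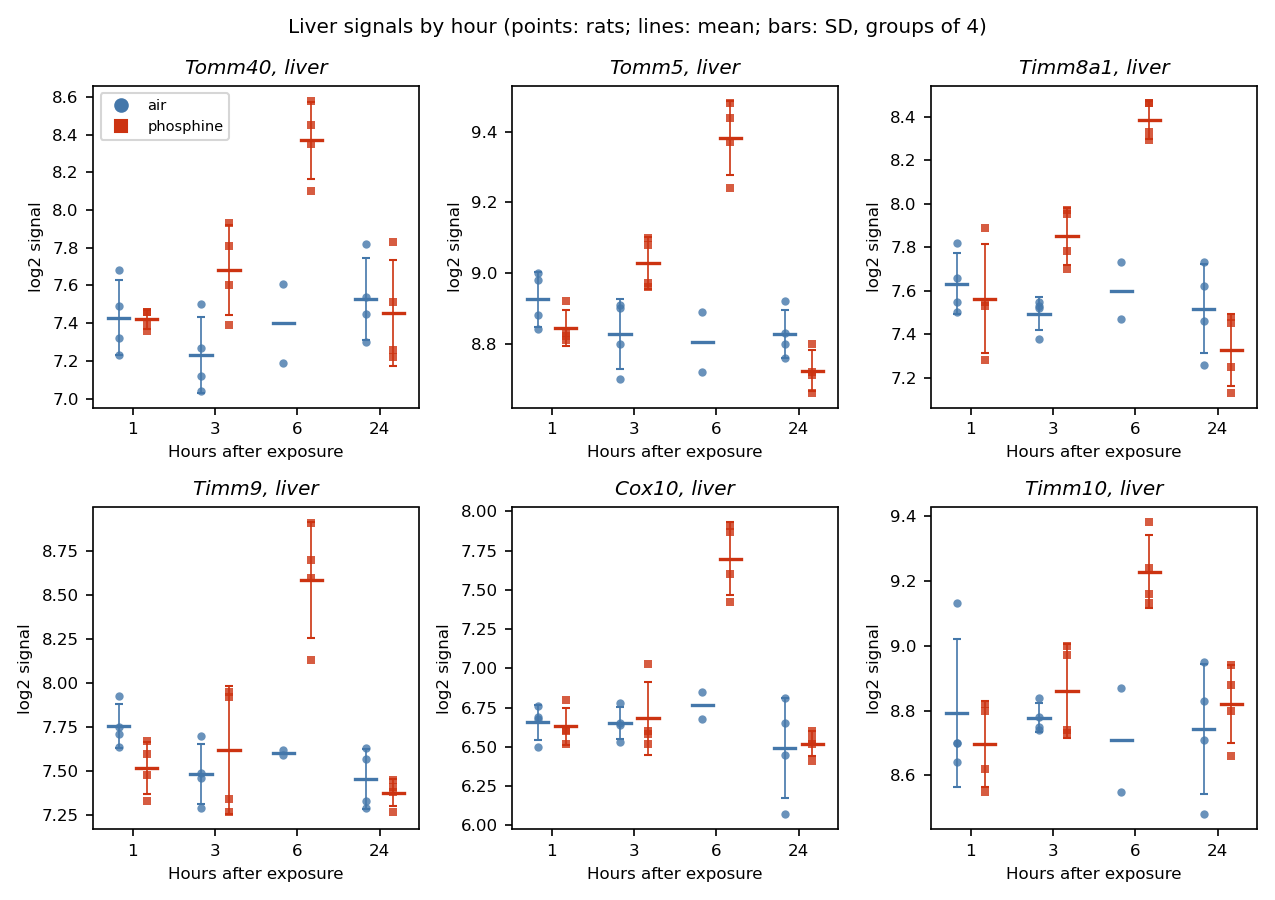
Log2 signal in the liver of each rat (points) against hours after exposure, in air (circles) and phosphine (squares), with group means (lines) and SD (bars, groups of 4) for Tomm40, Tomm5, Timm8a1, Timm9, Cox10 and Timm10. At 6 h the exposed livers stand above both air livers in each panel (Tomm40 from 8.10 to 8.58 against 7.19 and 7.61), and by 24 h the groups overlap.

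The 2 air livers at 6 h set the precision of these results. Without air Rat762 or air Rat763 no member was called, while Tomm40 was 1.18 and 0.75 higher. Without exposed Rat761, Rat789, Rat760 or Rat758 the count was 1, 2, 3 or 5, and with air livers of all hours pooled it was 15, 12 higher and 3 lower. With the rat as a block in 1 fit over the 5 solid tissues 8 members were called, all higher. Timm10 (padj = 0.00354) and Timm8b (0.33, padj = 0.045, and 0.228 in the fit of liver alone) were among them. The same fit without the rat term also called 8 members. The block setting, here and below, thus changes both the pairing of rats and the joint fit of the tissues. With each array centred on its median, Cox10 alone was called (padj from 0.0515 to 0.0625 for the other 4 genes, whose values of 1.04 for Tomm40, 1.06 for Timm9, 0.86 for Timm8a1 and 0.66 for Tomm5 were no smaller), and with only the 2 groups of 6 h in the fit none was (padj from 0.597 to 0.673). With the mean of all probe sets of a gene, Timm9 (0.55, padj = 0.0977) and Timm8a1 (0.55, padj = 0.07) were not called. The other probe set of Timm9 was dim (3.04 against 2.92), and the 2 correlated at r = -0.484 over all arrays, so that the result for Timm9 rests on the brighter one. Macrophage markers were 0.25 lower in these exposed livers, in 5 of 5 markers (8.47 to 8.73 against 8.81 in both air rats), lymphocyte markers were 0.32 lower in 4 of 4 at a level of at most 3.82, and hepatocyte markers differed by -0.04 (12.95 to 13.10 against 13.03 to 13.12). The part of these in the result was not tested.

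By hour, Tomm40 stood at -0.01 ± 0.15 at 1 h, 0.45 ± 0.15 at 3 h (padj = 0.105), 0.97 at 6 h and -0.08 ± 0.15 at 24 h. Tomm5 followed with -0.08, 0.20, 0.58 and -0.11, Timm8a1 with -0.07, 0.36, 0.78 and -0.19, and Timm9 with -0.24, 0.13, 0.98 and -0.07. Cox10 had 0.03 ± 0.13 at 3 h and 0.02 ± 0.13 at 24 h. The effect differed between the 4 times for Tomm5 (padj = 0.0117), Timm8a1 (padj = 0.0295) and Timm9 (padj = 0.0487) in limma's moderated F test, in which 0.476% of all genes were called. Tomm40 (padj = 0.0847) and Cox10 (padj = 0.0678) did not pass it. At 6 h the effect also differed between the 5 solid tissues, where 1.35% of genes were called, for Timm9 (padj = 4.12e-06), Cox10 (padj = 6.07e-05), Tomm40 (padj = 0.000878), Timm8a1 (padj = 0.0091) and Tomm5 (padj = 0.0269). Timm9 ranged from -0.26 ± 0.10 in heart to 0.98 in liver, and Cox10 from -0.31 ± 0.14 in heart through 0.32 ± 0.10 in kidney to 0.94 in liver.

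The stretches before the start sites of these 5 genes are shown because the genes were called in the same comparison. Each is the 250 bases upstream of the start site in the RefSeq promoter table (GRCr8), which for these 5 genes is the outer edge of the gene, read 5' to 3' on the gene's strand, with matches to 5 motifs in capitals.
Tomm40, chr1:88498834-88499083, minus strand: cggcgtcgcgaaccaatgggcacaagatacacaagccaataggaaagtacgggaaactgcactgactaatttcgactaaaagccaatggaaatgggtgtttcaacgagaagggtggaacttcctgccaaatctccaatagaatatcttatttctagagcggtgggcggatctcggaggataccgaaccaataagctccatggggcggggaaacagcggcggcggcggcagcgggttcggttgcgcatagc
Tomm5, chr5:64160858-64161107, minus strand: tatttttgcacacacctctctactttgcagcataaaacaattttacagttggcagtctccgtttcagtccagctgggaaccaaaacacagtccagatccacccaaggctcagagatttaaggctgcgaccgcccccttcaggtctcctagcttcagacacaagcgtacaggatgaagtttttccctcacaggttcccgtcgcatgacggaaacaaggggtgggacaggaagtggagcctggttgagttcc
Timm8a1, chrX:102015445-102015694, minus strand: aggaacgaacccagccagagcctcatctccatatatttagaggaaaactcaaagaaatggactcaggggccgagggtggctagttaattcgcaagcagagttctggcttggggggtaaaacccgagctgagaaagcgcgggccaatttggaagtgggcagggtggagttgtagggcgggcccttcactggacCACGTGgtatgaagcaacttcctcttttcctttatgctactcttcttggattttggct
Timm9, chr6:95358896-95359145, minus strand: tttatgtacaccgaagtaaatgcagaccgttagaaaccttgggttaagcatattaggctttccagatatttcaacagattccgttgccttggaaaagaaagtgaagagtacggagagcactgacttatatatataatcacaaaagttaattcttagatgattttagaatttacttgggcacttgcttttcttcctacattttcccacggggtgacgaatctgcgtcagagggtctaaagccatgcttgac
Cox10, chr10:49242010-49242259, minus strand: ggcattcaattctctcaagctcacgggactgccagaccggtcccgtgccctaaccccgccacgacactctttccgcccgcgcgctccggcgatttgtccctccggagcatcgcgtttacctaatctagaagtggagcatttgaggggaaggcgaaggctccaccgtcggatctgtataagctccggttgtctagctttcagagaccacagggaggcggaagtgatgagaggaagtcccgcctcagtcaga
The motifs, searched on both strands and chosen after the expression values were seen, were GCGC, any base, TGCGC for NRF1, CACGTG for the E-box, CCGGAAG for ETS factors, TCAAGGTCA for ERR and TGACGTCA for the CRE. Among the 5 windows only Timm8a1 held one, an E-box whose first base lies at -58. Of the 32 members matched to a promoter, 12 held the ETS letters (37.5%, against 7.3% of all 33469 promoters), 6 the NRF1 letters (18.8% against 3.8%), 3 the E-box (9.4% against 5.6%), and 1 each the ERR and CRE letters (3.1% against 0.4% and 1.6%). The background is every promoter of the table, not only those of genes on the array. It is counted per promoter and the members per gene, so the 2 shares are not strictly alike. These shares describe windows, not binding.

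At 3 h the liver had 1 called member, Cox19, a small protein of the copper pathway. It was 8.35, 8.13, 8.22 and 8.24 in air rats and 7.94, 7.96, 7.87 and 7.90 in exposed rats (-0.32 ± 0.08, padj = 0.0231), without overlap. The liver of exposed Rat730 carried skeletal muscle transcripts, 4.89 above the tissue's median. The call was lost with the livers that carried another organ's transcripts left out (-0.30, padj = 0.0793), with each array centred on its median (-0.26, padj = 0.261), with the mean of probe sets (-0.21, padj = 0.506), and without Rat732, Rat738, Rat739, Rat730 or Rat731 (padj up to 0.0905). With the rat as a block 6 members were called there, 1 lower and 5 higher. The 5 were Tomm40 (padj = 0.00414 with the block), Coa7 (padj = 0.00705), Tomm20 (padj = 0.0107), Timm8a1 (padj = 0.0154) and Coa4 (padj = 0.0234). In the fit of liver alone, uncalled values at 3 h included Coa7 (0.55 ± 0.17, padj = 0.0773), Tomm20 (0.37 ± 0.12, padj = 0.0806) and Timm8a1 (0.36 ± 0.12, padj = 0.102).

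Tomm40 was called in kidney as well. At 6 h it was 8.37 and 8.53 in air rats and 8.85, 8.96, 8.77 and 8.96 in exposed rats, and the 4 exposed kidneys lay above all 26 other kidney arrays, whose highest was 8.71. The change was 0.43 ± 0.10 (padj = 0.0382). Cox10 (0.32 ± 0.10, padj = 0.18) and Timm10 (0.29 ± 0.09, padj = 0.178) were next and not called. The 3' minus 5' difference was also higher in these exposed kidneys (0.6817 to 0.7525 against 0.587 and 0.5995), and its part in the result was not tested. The Tomm40 call was lost without any one of the 6 rats (0.36 to 0.51, padj up to 0.543) and with the rat as a block (0.43, padj = 0.382), while with air kidneys of all hours pooled 8 members were called, all higher. The effect on Tomm40 differed between the hours in kidney (padj = 0.0312, with 1.75% of genes called), from -0.19 ± 0.08 at 1 h to 0.43 at 6 h.

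Among the oxidase assembly factors, Coa7 rose in 3 comparisons and Coa4 fell in 2. Coa7 is a protein of the intermembrane space needed for complex IV, and Coa4 a small twin CX9C protein of the same compartment. The windows upstream of both are printed because these genes were called in both kidney and lung. They come from RefSeq, GRCr8, plus strand, and end before the promoter table's start sites, which lie 16 (Coa7) and 30 (Coa4) bases inside the gene spans given here.
Coa7, chr5:128297850-128298099: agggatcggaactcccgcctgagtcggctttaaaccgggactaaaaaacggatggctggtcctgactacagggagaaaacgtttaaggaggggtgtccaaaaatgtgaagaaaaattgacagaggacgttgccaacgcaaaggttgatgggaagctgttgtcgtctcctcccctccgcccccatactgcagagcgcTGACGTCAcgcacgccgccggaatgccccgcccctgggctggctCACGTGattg
Coa4, chr1:164294092-164294341: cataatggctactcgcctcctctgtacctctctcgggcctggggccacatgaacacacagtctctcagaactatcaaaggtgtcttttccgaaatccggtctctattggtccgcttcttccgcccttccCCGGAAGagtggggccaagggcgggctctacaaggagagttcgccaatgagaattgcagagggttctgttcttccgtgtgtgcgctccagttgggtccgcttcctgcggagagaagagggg
The capitals mark, in Coa7, a CRE with its first base at -54 and an E-box at -10, and in Coa4 an ETS match at -121, all counted from the promoter table's start site, so that the Coa7 E-box lies inside the gene span.

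Coa7 (chr5:128298084-128308935) was 5.07, 5.37, 5.44 and 5.31 in the kidneys of air rats at 1 h and 5.76, 5.81, 5.66 and 5.74 in those of exposed rats. The groups were separate, with a change of 0.45 ± 0.09 (padj = 0.00738). At 3 h the kidneys read 5.27, 5.55, 5.31 and 5.52 in air and 5.80, 5.68, 5.93 and 5.72 after phosphine (0.37 ± 0.09, padj = 0.0157), again without overlap. In lung at 1 h Coa7 was 3.44, 3.94, 3.87 and 4.03 in air rats and 4.13, 4.45, 4.30 and 4.45 in exposed rats (0.51 ± 0.12, padj = 0.0115). These lung signals lie below the median of all probe sets, 4.41, or close to it. In liver, which had the highest Coa7 signal of the air rats, the values at 1 and 3 h were positive but not called (0.38 ± 0.17, padj = 0.676, and 0.55 ± 0.17, padj = 0.0773).

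By 6 and 24 h the Coa7 values in kidney were 0.14 ± 0.12 and -0.17 ± 0.09, and the effect differed between the hours (padj = 0.0316). A second Coa7 probe set gave 0.16 and 0.20 in kidney at 1 and 3 h and 0.34 in lung at 1 h. The kidney calls were lost with the rat as a block (padj = 0.146 at 1 h and 0.224 at 3 h), and that at 3 h without Rat732, Rat738 or Rat730 (padj up to 0.0644). The lung call was lost without air Rat720 (0.39, padj = 0.064). Leaving out the kidney of air Rat720, which carried hepatocyte transcripts, gave 0.37 at 1 h (padj = 0.0404), and leaving out lungs of that kind, exposed Rat716 at 1 h among them, gave 0.52 (padj = 0.0232).

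Coa4 (chr1:164294312-164297571) in lung at 1 h was 6.65, 6.68, 6.73 and 6.65 in air rats and 6.21, 6.14, 6.07 and 6.03 in exposed rats. The exposed lungs lay below all 26 other lung arrays, of which the lowest was 6.31. The change of -0.57 ± 0.07 (padj = 2.39e-05) had the lowest padj of all 828 pairs and stayed called under all 9 other settings (padj up to 0.022) and without any one rat (padj up to 0.00023). By 3 h it was -0.03 ± 0.07, and the effect differed between the hours in lung (padj = 0.0012, with 6.38% of genes called). Neutrophil markers were higher in the exposed lungs at 1 h, as given below with Timm8a1. Their part in the Coa4 and Coa7 results of lung at 1 h was not tested, and none of the settings addressed it. In kidney at 3 h Coa4 was 7.53, 7.29, 7.42 and 7.62 in air rats and 7.36, 6.97, 6.96 and 7.28 in exposed rats, so that the groups overlapped (-0.32 ± 0.09, padj = 0.0361), and the call was lost with the rat as a block (padj = 0.116) and without Rat732, Rat738, Rat739, Rat729 or Rat730 (padj up to 0.134). At 1 h its values were also negative, without a call, in kidney (-0.29 ± 0.09, padj = 0.0922) and brain (-0.34 ± 0.12, padj = 0.296).

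**Figure D4:**
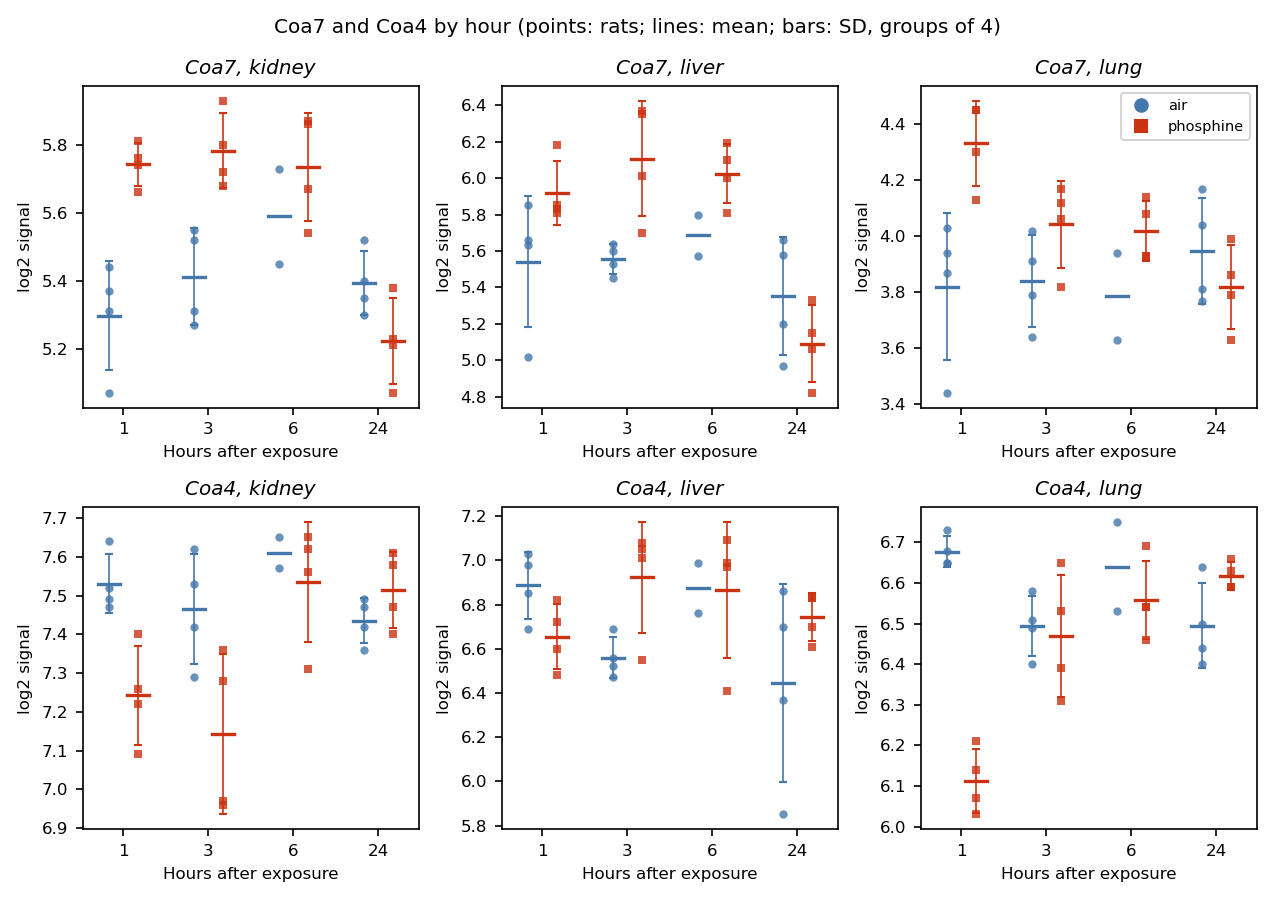
Log2 signal of Coa7 (top) and Coa4 (bottom) in kidney, liver and lung of each rat (points) against hours after exposure, with group means (lines) and SD (bars, groups of 4), in air (circles) and phosphine (squares). Exposed kidneys and lungs have higher Coa7 at 1 h, and exposed lungs have Coa4 from 6.03 to 6.21 at 1 h against 6.65 to 6.73 in air.

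Cox20 fell in heart, lung and blood at 3 h. In heart it was 5.48, 6.58, 5.69 and 5.69 in air rats and 5.24, 4.68, 4.82 and 4.80 in exposed rats (-0.97 ± 0.27, padj = 0.0449). In lung it was 4.96, 4.77, 4.87 and 4.83 in air rats and 4.54, 4.31, 4.06 and 4.31 in exposed rats (-0.55 ± 0.18, padj = 0.0432). Neither pair of groups overlapped, and the lung signals are dim, near the median of all probe sets (4.41). Liver had a value of the other sign (0.32 ± 0.23, padj = 0.561), and the effect differed between the solid tissues at 3 h (padj = 0.016, with 14.4% of all genes called). With the arrays that carried another organ's transcripts left out, neither call held (-0.90, padj = 0.0853 in heart and -0.59, padj = 0.164 in lung), and the lung call was also lost with the rat as a block (padj = 0.10). The heart call was lost in 6 of 8 and the lung call in 7 of 8 runs without 1 rat (padj up to 0.168 and 0.15). Without air Rat733, the heart value was -0.73.

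The other called member in heart at 3 h was Cox10, which there fell. Air hearts read 8.88, 9.21, 9.10 and 8.97 and exposed hearts 8.73, 8.15, 8.73 and 8.61, with no overlap (-0.49 ± 0.11, padj = 0.0153). Exposed Rat729, whose heart carried hepatocyte transcripts, had the lowest value, and without the arrays of that kind the change was -0.35 (padj = 0.0294). With each array centred on its median its padj was 0.0598. The effect on Cox10 differed between the solid tissues at 3 h (padj = 0.0248). Of the 36 members, 32 had negative values in heart at 3 h, beside 53.6% of all genes, with a median of -0.14 beside -0.02 over all genes, and Timm21 of the presequence translocase was at -0.39 ± 0.14 (padj = 0.122). These values include the heart of Rat729, and the count of negative values and the median were not computed without it. With the arrays that carried another organ's transcripts left out 1 member was called. Timm21 ran from -0.41 to -0.21 under the other settings, and Oxa1l from -0.26 to -0.02. With the rat as a block 7 members were called there, all lower, Timm21 (padj = 0.00719) and Oxa1l (-0.26, padj = 0.0313) among them, and 3 at 24 h, 1 higher and 2 lower, the latter including Coa5 (-0.30, padj = 0.00238). Without air Rat733, air Rat738 or exposed Rat729 no member was called, without Rat739, Rat730 or Rat731 there was 1, and without exposed Rat728 there were 5. Macrophage markers were 0.47 higher in these exposed hearts, in 5 of 5 markers (7.25 to 8.24 against 7.08 to 7.32), and the 3' minus 5' difference was 0.63 against 0.4445. The part of these in the result was not tested.

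Kidney at 3 h held 2 further falls. Timmdc1, which despite its symbol is an assembly factor of respiratory complex I, was 8.18, 8.17, 8.0 and 8.35 in air rats and 7.80, 7.73, 7.88 and 7.80 in exposed rats (-0.38 ± 0.07, padj = 0.00195). It stayed called without any one rat (padj up to 0.0137). Tomm34, a cytosolic cochaperone of precursors, was 7.04, 7.13, 7.03 and 7.15 in air rats and 6.86, 6.73, 6.98 and 6.77 in exposed rats (-0.25 ± 0.07, padj = 0.0405), a small change that was lost in 7 of 8 runs without 1 rat (padj up to 0.133) and with the rat as a block (padj = 0.298). Without air Rat732 or Rat738 only Timmdc1 was called in this comparison, and without Rat739, Rat729 or Rat730 there were 2 calls. With the rat as a block the calls were Timmdc1 and Timm8a2, a small Tim paralogue (-0.88 ± 0.38, padj = 0.00997 with the block and 0.185 in the fit of kidney alone). Timm8a2 was dim, with a mean of 4.33 in air kidneys near the median of all probe sets (4.41). Its air kidneys varied widely, from 3.44 to 6.06 (SD 0.69). In the other solid tissues, whose spread the block fit shares, the SD lay between 0.13 (lung) and 0.28 (liver). Macrophage markers were 0.40 higher in these exposed kidneys, in 4 of 5 markers (6.65 to 6.94 against 6.14 to 6.62). The part of these in the result was not tested.

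In lung the small chaperone Timm8a1 rose at 1 h, from 5.94, 5.82, 6.01 and 6.00 in air rats to 6.49, 6.47, 6.31 and 6.25 in exposed rats (0.44 ± 0.11, padj = 0.0179). The groups were separate, and the second probe set gave 0.17. Without Rat721, Rat710 or Rat712 the call was lost (padj up to 0.0583), as it was with the mean of probe sets (0.31, padj = 0.101). Neutrophil markers were 0.58 higher in these lungs, in 4 of 4 markers (6.15 to 6.85 against 5.37 to 6.18), and their part in the result was not tested.

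At 3 h Oxa1l, the insertase that places mitochondrially encoded subunits into the inner membrane, read 8.07, 8.25, 8.12 and 8.06 in air lungs and 8.55, 8.46, 8.84 and 8.49 in exposed lungs. The groups did not overlap (0.46 ± 0.09, padj = 0.00132), and the call held without any one rat (padj up to 0.00959) and without the arrays that carried another organ's transcripts (0.57, padj = 0.0076). A second, dimmer Oxa1l probe set had the opposite sign (3.72 after phosphine, 4.32 in air, -0.59), and the mean of both gave -0.07 (padj = 0.817). Over all arrays the 2 probe sets correlated at r = 0.058, so that the direction for the gene rests on the brighter one. For that probe set the effect differed between the solid tissues at 3 h (padj = 7.71e-06), with -0.26 ± 0.10 in heart and -0.17 ± 0.07 in liver, and between the hours in lung (padj = 0.0213).

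The receptor Tomm22 was 8.85, 9.01, 9.07 and 9.08 in air lungs at 3 h and 9.21, 9.18, 9.31 and 9.23 in exposed lungs (0.23 ± 0.06, padj = 0.0145), and Timm22, the channel of the carrier translocase, was 6.14, 6.07, 6.04 and 6.26 in air and 6.53, 6.65, 6.19 and 6.40 after phosphine (0.31 ± 0.10, padj = 0.0355). The Timm22 groups overlapped and those of Tomm22 did not. A second Timm22 probe set gave only 0.07 (6.23 after phosphine, 6.16 in air), and the 2 correlated at r = 0.746 over all arrays. With the mean of probe sets Timm22 was 0.19 and not called (padj = 0.174). Without the arrays that carried another organ's transcripts Timm22 was 0.17 (padj = 0.472) and Tomm22 0.29 (padj = 0.0504), and Oxa1l alone was called. Without air Rat732 Oxa1l alone was called too, and 2 members were called without Rat733, Rat738, Rat729 or Rat731. Neutrophil markers were 1.03 higher in the exposed lungs at 3 h, in 4 of 4 markers (6.53 to 6.86 against 5.38 to 5.93), and macrophage markers 0.34 higher in 4 of 5 (8.31 to 8.37 against 7.85 to 8.11). The part of these in the result was not tested.

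Blood at 3 h had the largest called changes, all 4 calls being lower. Oxa1l was 8.04, 7.90, 8.37 and 8.41 in air rats and 6.94, 7.04, 6.86 and 6.90 in exposed rats, which lay below all 20 other blood arrays (-1.24 ± 0.24, padj = 0.00736). Cox20 was 5.47, 4.65, 4.43 and 4.56 in air rats and 2.73, 3.66, 2.51 and 4.06 in exposed rats (-1.53 ± 0.32, padj = 0.00937). Its exposed values lie below 4.41, the median of all probe sets, so that the probe set was dim there and the size of the change is uncertain, and air blood read only 3.71 to 4.17 at 1 h and 3.92 at 6 h. Neither gene's groups overlapped, and both calls held without any one rat (padj up to 0.0319 and 0.0369).

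Timm29, a subunit of the carrier translocase, was 7.35, 7.44, 7.59 and 7.63 in air blood and 6.70, 5.34, 5.90 and 6.07 after phosphine (-1.50 ± 0.34, padj = 0.0146). Tomm20, the main receptor for precursors with a presequence, was 8.46, 8.70, 8.43 and 8.55 in air and 7.98, 5.82, 7.46 and 7.31 after phosphine (-1.39 ± 0.42, padj = 0.0498). Exposed Rat729 had the lowest value of both genes; without it Tomm20 was -0.95 (padj = 0.215) and Timm29 -1.28 (padj = 0.0624), and 2 members were called. The Tomm20 call was lost in 7 of 8 such runs. The second Tomm20 probe set gave -1.37, while the second probe sets of Timm29 (0.35) and Oxa1l (0.15) had the opposite sign. The probe sets of Timm29 correlated at r = -0.535 over all arrays, so that its direction, like that of Oxa1l, rests on the brighter one. With the mean of probe sets neither was called (-0.57, padj = 0.192, and -0.55, padj = 0.143). After quantile normalization within blood only Cox20 was called. Tomm70 (-1.66 ± 0.53, padj = 0.0606) and Coa3 (-1.07 ± 0.36, padj = 0.0697) were not called, and Coa7 (0.99 ± 0.35, padj = 0.0925) and Timm8a1 (0.92 ± 0.32, padj = 0.0876) had positive values.

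The median over the 36 members in blood at 3 h was -0.40, beside -0.07 over all genes. The composition of the blood moved with these values. Lymphocyte markers were 1.00 lower in 4 of 4 markers (8.0 to 8.79 against 8.99 to 9.60) and neutrophil markers 0.51 higher in 4 of 4 (7.64 to 8.69 against 7.25 to 8.04). The 75th percentile of the arrays was 5.595 to 5.678 after phosphine and 5.826 to 5.924 in air, and with it as a covariate no member was called. The percentile did not overlap between the groups, so this setting can hardly separate it from exposure. The loss of the calls therefore decides nothing. The value of Cox20 was then -1.42 (padj = 0.69), close to that without the covariate, while those of Oxa1l (-0.67, padj = 0.805), Timm29 (-0.71, padj = 0.849) and Tomm20 (-0.47, padj = 0.946) were smaller. The part of the cell types in the result was not tested.

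**Figure D5:**
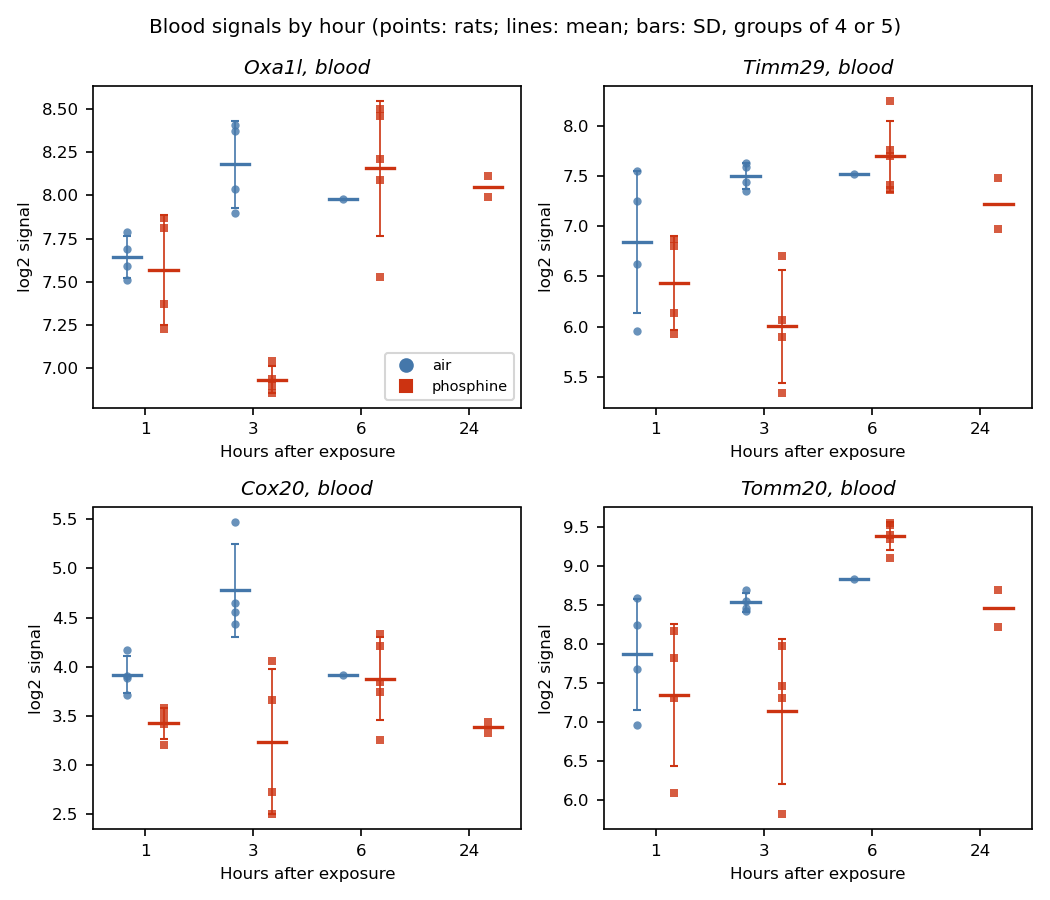
Log2 signal of Oxa1l, Timm29, Cox20 and Tomm20 in each blood sample (points) against hours after exposure, with group means (lines) and SD (bars, groups of 4 or 5), in air (circles) and phosphine (squares). At 3 h the exposed samples lie below the air samples in all panels (Oxa1l from 6.86 to 7.04 against 7.90 to 8.41), and at 24 h there are only exposed samples.

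Whether the effect differed between organs was tested over the 5 solid tissues at each hour. At 1 h 0 of 36 members passed limma's F test (3.27% of all genes did, and 6 members had an unadjusted p under 0.05, beside 13.8% of genes). At 3 h 8 members did, beside 14.4% of all genes, and beside Oxa1l, Cox20 and Cox10 these were Timm21 (padj = 0.00761), Timm8a1 (padj = 0.00932), Coa4 (padj = 0.0151), Tomm40 (padj = 0.0162) and Timm22 (padj = 0.0308). Timm21, which links the presequence translocase to the TOM complex, ranged from -0.39 in heart to 0.20 ± 0.11 in lung. Timm8a1 ranged from -0.30 ± 0.12 in heart to 0.36 in liver, Coa4 from -0.32 in kidney to 0.36 ± 0.17 in liver, Tomm40 from -0.19 ± 0.14 in heart to 0.45 in liver, and Timm22 from -0.13 ± 0.10 in heart to 0.31 in lung. The heart of exposed Rat729 at 3 h carried hepatocyte transcripts. Without this rat in any tissue 2 members passed at 3 h, while more passed without exposed Rat728. Under the other settings the heart values ran from -0.41 to -0.21 for Timm21 and from -0.32 to -0.14 for Timm8a1. Those of Tomm40 ran from -0.21 to -0.03 and those of Timm22 from -0.16 to -0.04. At 6 h the 5 members called in liver passed, and at 24 h Coa5, an early assembly factor, did (padj = 0.0137, with 0.625% of genes), from -0.30 ± 0.10 in heart to 0.12 ± 0.07 in lung. Between hours, 0 members passed in brain and heart (0.0893% and 0.424% of genes, with 1 and 2 members at an unadjusted p under 0.05, beside 8.95% and 11% of genes).

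Genes that work with the members were read from 4 lists. Of 14 measured subunits of cytochrome c oxidase, none was called in liver at 6 h (median 0.03, from -0.36 to 0.14), and in all 23 comparisons 2 were called, Cox6a1 (0.29 ± 0.09, padj = 0.0439) and Cox8a (0.24 ± 0.08, padj = 0.0469), both higher in lung at 3 h, where 5.84% of all genes were called higher. Of 17 import partners, 3 were higher in the same comparison: Hspa9, the mitochondrial Hsp70 that pulls precursors in (0.46 ± 0.08, padj = 0.000548), Pmpca, a subunit of the presequence peptidase (0.30 ± 0.08, padj = 0.0148), and Grpel1, the exchange factor of Hspa9 (0.23 ± 0.07, padj = 0.0367). In blood at 3 h Grpel1 (-1.07 ± 0.26, padj = 0.0198) and the chaperonin Hspd1 (-1.30 ± 0.31, padj = 0.0193) were lower, beside 5.8% of all genes. Immp1l, a peptidase of the inner membrane, was lower in kidney at 3 h (-0.39 ± 0.12, padj = 0.0493), where 3.53% of all genes were, and in lung at 1 h (-0.49 ± 0.14, padj = 0.0407), where 3.62% were. Of 12 other oxidase factors, Cmc2 was lower in kidney at 3 h (-0.30 ± 0.07, padj = 0.0134) and Cox14 in blood at 3 h (-0.93 ± 0.23, padj = 0.0198), and the protease Yme1l1 was higher in blood at 6 h (2.97 ± 0.41, padj = 0.00366), where the air group is 1 sample and 0.0446% of all genes were called higher.

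Of 10 regulators of mitochondrial biogenesis, the coactivators Ppargc1a and Ppargc1b rose in liver at 1 and 3 h, where 0.208% and 1.99% of all genes were called higher. Ppargc1a was 5.30, 4.05, 5.41 and 5.28 in air livers at 1 h and 6.98, 7.78, 7.05 and 8.46 in exposed livers (2.56 ± 0.42, padj = 0.00644). At 3 h it was 4.38, 3.96, 3.15 and 3.16 in air and 7.03, 7.51, 6.96 and 7.99 after phosphine (3.71 ± 0.42, padj = 1.06e-05), and at 6 h 4.50 in both air livers and 5.83, 5.42, 5.52 and 4.09 after phosphine, with no call (0.71 ± 0.52, padj = 0.749). The groups were separate at 1 and 3 h and overlapped at 6 h. At 24 h they were separate again, without a call. Air livers then read 3.00, 3.59, 3.74 and 3.37 and exposed livers 5.86, 3.79, 4.87 and 4.61. The highest of these was that of Rat741, whose liver carried kidney transcripts. Ppargc1b changed by 1.57 ± 0.26 (padj = 0.00698) and 1.77 ± 0.26 (padj = 0.000179) at 1 and 3 h. It also rose at 1 h in heart (0.87 ± 0.15, padj = 0.00155, with 0.99% of all genes higher) and kidney (0.72 ± 0.11, padj = 0.000443, with 2.12%), and Ppargc1a did in lung at 1 h (0.98 ± 0.21, padj = 0.00534, with 2.18%). The factors Esrra and Tfam were not called in liver at any hour. In lung at 3 h, where 5.84% of genes were higher and 5.76% lower, Tfb2m was higher (0.32 ± 0.08, padj = 0.0127) and Yy1 lower (-0.38 ± 0.11, padj = 0.0268), and in blood at 3 h Tfam (-1.93 ± 0.44, padj = 0.0159) and Yy1 (-1.61 ± 0.41, padj = 0.0228) were lower.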

How the data were processed

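Total RNA of 174 tissue and blood samples was hybridised to rat Affymetrix 3' arrays, per the labels' protocols. The deposited values are log2 signals that the authors made with RMA in Partek, per the submitters' processing notes (versions, and whether the tissues were normalized together, are not given in the sources used here). They ran from 1.74 to 14.13. The number of arrays per group limits the precision.

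Of 31139 probe sets, 19063 listed 1 gene, 572 several, 11407 none and 97 were controls. The brightest one-gene probe set by mean stood for each of 13438 genes, named by the platform annotation. Entrez IDs matched RefSeq (GRCr8) for all members but Cox11. For each tissue, lmFit and eBayes of limma 3.58.1 (in R 4.3.3) estimated a mean per exposure and hour, with Benjamini-Hochberg adjustment over all genes. In blood, the 2 exposed samples of 24 h entered for the spread only. Differences of the effect between hours or tissues used limma's moderated F test. The fit was tested on simulated data in which 200 genes had been changed.

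Rat numbers pair the solid tissues, which came from the same animals. The deviations of the same rat correlated at 0.015 to 0.123 between tissue pairs (30 rats), and the consensus correlation of the rat block was 0.027. RNA integrity was compared with exact permutation tests. Alternatives were array centring, quantile normalization, the mean of probe sets, leaving out dim genes (below the 40th percentile), trend and robust eBayes, only the groups compared, pooled air rats, the rat block, arrays with another organ's transcripts left out, and each rat left out; a fit over the solid tissues and the 75th percentile covariate in blood were added after seeing the data. Every member could be named. Called members were named from the largest change down, and preset import and assembly genes were given where not called. Uncalled members beyond these were chosen after their values were seen. The members and lists were chosen with earlier results of these data known.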

Additional observations from a re-analysis of the deposited data

Results flagged for a closer look

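The results in this section are those in which the effect of phosphine differed between hours or between solid tissues by limma's moderated F test (adjusted over all genes). Between hours in kidney these were Tomm40 (padj = 0.0312) and Coa7 (padj = 0.0316). In liver they were Tomm5 (padj = 0.0117), Timm8a1 (padj = 0.0295) and Timm9 (padj = 0.0487). In lung they were Coa4 (padj = 0.0012) and Oxa1l (padj = 0.0213).

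Between tissues at 3 h they were Oxa1l (padj = 7.71e-06), Timm21 (padj = 0.00761), Timm8a1 (padj = 0.00932), Coa4 (padj = 0.0151), Cox20 (padj = 0.016), Tomm40 (padj = 0.0162), Cox10 (padj = 0.0248) and Timm22 (padj = 0.0308). At 6 h they were Timm9 (padj = 4.12e-06), Cox10 (padj = 6.07e-05), Tomm40 (padj = 0.000878), Timm8a1 (padj = 0.0091) and Tomm5 (padj = 0.0269), and at 24 h Coa5 (padj = 0.0137). Of 44 groups of called genes tested for a sample far from the others, 0 had one, where chance gives about 1 in 20 in groups not picked by a call. Called genes tend to have a small spread within groups, and such small groups rarely reach the limit. The result therefore does not show that no single rat carried a call, and many calls were lost without 1 rat.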

How the results depend on the processing

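Of the 25 calls, Coa4 in lung at 1 h held under every setting and without any rat. Counts of called members are given here against the main counts of 5 in liver at 6 h, 4 each in kidney, lung and blood at 3 h, 3 in lung at 1 h, 2 in heart at 3 h and 1 each in liver at 3 h and in kidney at 1 and 6 h. With the rat as a replicate block they were 8 in liver at 6 h, 7 in heart at 3 h, 6 in liver at 3 h, 3 in heart at 24 h, 2 in kidney at 3 h, 1 in liver at 24 h and 0 in kidney at 1 and 6 h, and 1 fit over the 5 solid tissues with no rat term gave the same counts. Calls of named genes that the block setting ended or added are given with the results. Those it ended were also lost in the fit with no rat term, with padj = 0.154 for Coa7 in kidney at 1 h and 0.401 for Tomm40 in kidney at 6 h. With only the 2 groups compared, the counts were 2 in lung at 3 h, 1 in lung at 1 h and 0 in heart, kidney and liver at 3 h, kidney at 1 h, and kidney and liver at 6 h. With air rats of all hours pooled they were 15 in liver, 8 in kidney and 1 each in heart and lung at 6 h. Array centring gave 2 in kidney at 3 h, 1 each in heart at 3 h and liver at 6 h, 0 in kidney at 6 h, and 1 each between hours in kidney and liver. Quantile normalization gave 2 each in kidney and liver at 3 h, 1 in blood at 3 h and 0 in kidney at 6 h. The mean of probe sets gave 3 in liver at 6 h, 2 in lung at 3 h, 1 each between hours in liver and lung, and 2 and 0 between tissues at 1 and 24 h. Leaving out other-organ arrays gave 1 each in heart and lung at 3 h, leaving out dim genes 3 in liver at 3 h and 5 between hours in liver, trend and robust eBayes 2 in liver at 3 h, and the 75th percentile covariate 0 in blood at 3 h. The cause was not tested.

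Signs reversed for Oxa1l in lung at 3 h (-0.07), Coa5 in lung at 24 h (-0.01) and Timm9 in lung at 6 h (0.10) with the mean of probe sets, for Oxa1l in liver at 6 h with array centring (0.06) and without exposed Rat761 (0.02), and for Sco1 in liver at 6 h with pooled air rats (-0.04) and without 1 rat (-0.11 without Rat763, up to 0.18 without Rat762). Without 1 rat the counts ran from 0 to 5 in liver at 6 h and heart at 3 h, 2 to 5 in blood, 1 to 3 in kidney and lung and 0 to 1 in liver at 3 h, 2 to 3 in lung at 1 h, and were 1 and 0 in kidney at 1 and 6 h. Between hours they were 0 to 1 in heart (1 without Rat741), 1 to 3 in kidney and lung and 1 to 5 in liver. Between tissues they were 2 to 12 at 3 h (2 without Rat729, 4 without Rat738 or Rat739, 5 without Rat732 and 12 without Rat728), 1 to 5 at 6 h (1 without Rat763, 3 without Rat762) and 0 to 1 at 24 h. Groups of 2 air rats at 6 h limit what can be called there.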

Other observations

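Blood at 24 h had 2 exposed samples and no air sample, so no comparison was made. Oxa1l was 8.11 and 7.99, Timm29 7.48 and 6.97, Tomm20 8.70 and 8.22, Cox20 3.44 and 3.33, Tomm40 6.60 and 6.99, and Tomm70 6.87 and 6.70 in exposed Rat741 and Rat742.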
